A study of Mus musculus with 5 samples.

Results

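Fos, Fosb, Fosl2, Jun, Junb, Jund, Atf3, Egr1, Klf2 and Ier2 were examined in macrophages sorted from the aortas of atherosclerotic mice. These 10 genes were taken by symbol from the 55487 genes of the count table, and each symbol matched 1 gene. They encode AP-1 subunits and other transcription regulators of the immediate early response. AP-1 is a dimer of basic leucine zipper proteins. JUN proteins pair with each other or with FOS proteins, FOS proteins need a JUN partner, and the pair chosen changes how strongly target genes are switched on. Immediate early genes are transcribed within minutes of a stimulus, without new protein synthesis, through MAP kinases that act on factors already bound at their promoters. In macrophages they respond to cytokines, microbial products and adhesion, and they are also known to respond to the enzymatic digestion used to free cells from tissue.

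RNAseq compared 2 libraries labelled WT with 3 labelled KO, both from Western diet-fed male mice that lacked Apoe, which makes mice prone to atherosclerosis. The Zeb1WT/ApoeKO mice carried floxed Zeb1 alleles without Cre. The Zeb1∆M/ApoeKO mice carried the same alleles with Cre expressed from the lysozyme 2 gene, so that an exon of Zeb1 was deleted in myeloid cells, neutrophils included. Aortas were digested for 40 min at 37 °C, viable CD45+ F4/80+ cells were sorted (also gated on CD11b per the methods), and cDNA was amplified with an ultra-low-input kit. According to the methods, each genotype's cells came from several mice mixed together, and the labels do not say which animals a library came from, so p-values measure only the spread between these samples. No undigested or untreated sample was analysed here, and the part of the digestion in the levels was not tested.

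Library depth was 20118545 and 34596110 counts in Zeb1WT/ApoeKO replicates 1 and 2 and 24372265, 35771785 and 50649912 counts in Zeb1∆M/ApoeKO replicates 1, 2 and 3. A floor of 3 counts corresponded to between 0.0592 and 0.149 CPM, the count of a gene relative to the library's total, for counting error only, since amplified reads are not independent molecules. Zeb1, the deleted gene, had 0 counts in 4 libraries and 22 counts in Zeb1∆M/ApoeKO replicate 1, so it did not check the genotype labels. Lyz2, which drives Cre, had between 161607 and 869804 counts, and Apoe had between 0 and 86. Zeb1∆M/ApoeKO replicate 1 stood apart. It had 16423 genes over 3 counts against 5009 to 6931 in the others, 195682 hemoglobin counts against 0 to 75, and under 100 counts for 90.2% of the 7905 genes tested, against 51.6% to 79.8%. Summed macrophage markers were between 33219 and 88492 CPM, with Itgam, which encodes CD11b, at 0 in that library, Cd68 and C1qa at 0 in Zeb1WT/ApoeKO replicate 1, Fcgr1 at 0 in 2 libraries and Mertk at 0 in 4. Among the 1578 genes tested with a mean of 100 CPM or more, 70.7% were under 100 counts in that library, against 13.4% to 43.6% in the others, and so were Fosl2, Jun and Atf3 among the 8 members in that set. In such bulk samples, fewer expressing cells and less RNA per cell cannot be told apart.

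The promoters of Fos, Jun and Atf3 are shown because Fos had at least 11622 counts in every library while Jun and Atf3 were at or below 18 counts in Zeb1∆M/ApoeKO replicate 1, where most abundant genes were under 100 counts. Fosb and Jund were also at or below 18 counts in that library, and their promoters are not printed. The 250 bases before the RefSeq start site are given 5′ to 3′ on the strand of the gene (RefSeq, GRCm38.p6), and capitals mark matches to a cyclic AMP response element, TGACGT or TGACNTCA, on either strand.
Fos, chr12:85473640-85473889, plus strand: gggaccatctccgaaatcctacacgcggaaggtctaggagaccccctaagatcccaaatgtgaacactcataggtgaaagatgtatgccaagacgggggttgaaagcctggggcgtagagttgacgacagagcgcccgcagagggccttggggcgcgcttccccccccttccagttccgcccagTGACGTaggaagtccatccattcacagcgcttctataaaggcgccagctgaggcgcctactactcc
Jun, chr4:95052223-95052472, minus strand: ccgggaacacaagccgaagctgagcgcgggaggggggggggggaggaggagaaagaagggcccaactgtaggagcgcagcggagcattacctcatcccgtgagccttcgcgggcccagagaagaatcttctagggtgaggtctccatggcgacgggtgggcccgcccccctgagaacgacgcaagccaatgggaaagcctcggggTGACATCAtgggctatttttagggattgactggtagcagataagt
Atf3, chr1:191183334-191183583, minus strand: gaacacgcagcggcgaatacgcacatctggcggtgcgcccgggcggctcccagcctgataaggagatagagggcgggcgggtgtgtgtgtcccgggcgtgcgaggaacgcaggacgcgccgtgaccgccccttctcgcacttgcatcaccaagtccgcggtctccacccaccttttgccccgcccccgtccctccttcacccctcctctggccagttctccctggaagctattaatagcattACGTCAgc
Such an element is the kind of site that CREB, ATF and JUN proteins can bind. Counted from the start site, the match began at −66 in Fos, −45 in Jun and −8 in Atf3, where it was on the opposite strand. Among 32851 promoter windows, which run on for 50 bases past the start, TGACGT was found in 7.51% and TGACNTCA in 8.83%, and a site whose N is G counts under both. The windows of 8 members were in the table, all but Egr1 and Ier2. Of these 8, only Fos and Atf3 held TGACGT and only Jun held TGACNTCA, so the printed promoters are not typical of the set. None of the 8 held the AP-1 site TGANTCA, found in 7.81% of all windows, or a CArG box, found in 1.63%. TATAAA was in Fos and Junb and in 13.6% of all windows, and GGGCGG was in 6 of the 8 and in 35.7% of all. The Jund window ends at 70697788, before the gene start of 70698949 given below, so it does not cover that start. These matches describe letters only.

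Over 3 counts were found in all 5 libraries for 8 of the 10, all but Fosb and Klf2. Over the whole table, 1085 of the 21705 genes that passed 3 counts in any library did so, a background of all abundances. Among the 1578 genes tested with a mean of 100 CPM or more, 39.8% passed 3 counts in all libraries, as did 7 of the 8 members in that set. At least 1000 counts in each of the 4 libraries other than Zeb1∆M/ApoeKO replicate 1 were found for Fos, Jun, Junb, Egr1, Atf3 and Ier2, that is 6 of 10, against 3.92% of 13507 genes. This last description was chosen after the values were seen.

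Fos, the partner that gives AP-1 its strongest activators, lies on chromosome 12 (85473890 to 85477273, plus strand, GRCm38) and has 4 exons. It had 11622 and 44718 counts in the Zeb1WT/ApoeKO libraries and 17738, 19648 and 57819 in the Zeb1∆M/ApoeKO libraries. After TMM scaling these were 421 and 1298 CPM against 1464, 459 and 1151 CPM. The genotypes overlapped, and the highest value was 3.48 times the lowest, the narrowest range of the 9 members with a count in every library. Without Zeb1∆M/ApoeKO replicate 1 it was 3.08 times, and Jun and Ier2 had narrower ranges.

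Fosb, which resembles Fos and has a short splice form without the activating end, lies on chromosome 7 (19302696 to 19310051, minus strand, 4 exons). It had 1044 and 0 counts in the Zeb1WT/ApoeKO libraries and 3, 8905 and 1213 in the Zeb1∆M/ApoeKO libraries. The zero in Zeb1WT/ApoeKO replicate 2 stands beside 44718 counts of Fos in the same library, and it allows up to the floor of 0.0867 CPM. Fosb was thus at or under 3 counts in a library of each genotype.

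Fosl2 encodes FRA2, a FOS protein without a strong activation domain, on chromosome 5 (32135801 to 32157842, plus strand, 4 exons). It had 827 and 4356 counts in the Zeb1WT/ApoeKO libraries and 74, 22087 and 1058 in the Zeb1∆M/ApoeKO libraries, or 29.9 and 126 CPM against 6.11, 516 and 21.1 CPM. Its lowest and highest values were both in Zeb1∆M/ApoeKO libraries, 84.6 times apart, or 24.5 times without Zeb1∆M/ApoeKO replicate 1.

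Jun, the main JUN subunit and a target of JNK kinases, is a single-exon gene on chromosome 4 (95049034 to 95052222, minus strand). It had 22743 and 18803 counts in the Zeb1WT/ApoeKO libraries and 15, 42538 and 33167 in the Zeb1∆M/ApoeKO libraries, or 823 and 546 CPM against 1.24, 995 and 660 CPM. Without Zeb1∆M/ApoeKO replicate 1 its values lay within a range of 546 to 995 CPM. The highest was 1.82 times the lowest without that library and 804 times with it. The antisense gene Junos shares 232 exon bases with Jun and had 111 counts at most, in Zeb1∆M/ApoeKO replicate 2.

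Junb, a weaker activator than Jun that is known to drive inflammatory gene expression in activated macrophages, is a single-exon gene on chromosome 8 (84974484 to 84978718, minus strand). It had 13972 and 63984 counts in the Zeb1WT/ApoeKO libraries and 40321, 62523 and 17738 in the Zeb1∆M/ApoeKO libraries, or 506 and 1857 CPM against 3327, 1462 and 353 CPM. Zeb1∆M/ApoeKO replicate 1, in which Jun had 15 counts, was highest for Junb after TMM scaling, with its factor of 0.515, but not by level per exon length, at 1248 against 1962 in Zeb1WT/ApoeKO replicate 2 and 1610 in Zeb1∆M/ApoeKO replicate 2. The gene Prdx2 on the opposite strand shares 173 exon bases with Junb and had 66804 counts in Zeb1∆M/ApoeKO replicate 1 against 19316 to 23033 in the others. RSEM was run with default options, which do not use strand, so reads in the shared bases cannot be told apart.

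Jund, usually present in resting cells and less inducible than its relatives, is a single-exon gene also on chromosome 8 (70698949 to 70700616, plus strand). It was the rarest member, with 21 and 16 counts in the Zeb1WT/ApoeKO libraries and 5, 208 and 256 in the Zeb1∆M/ApoeKO libraries. On the scaled level these were 0.760 and 0.464 CPM against 0.413, 4.86 and 5.10 CPM. Zeb1∆M/ApoeKO replicates 2 and 3 were above both Zeb1WT/ApoeKO libraries, and Zeb1∆M/ApoeKO replicate 1 was below them. The antisense gene Gm11175, which shares 877 exon bases, had 0 counts in all libraries.

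Atf3, a stress-induced leucine zipper protein that dampens the response of macrophages to Toll-like receptors, lies on chromosome 1 (191170296 to 191218039, minus strand, 4 exons). It had 2240 and 28192 counts in the Zeb1WT/ApoeKO libraries and 18, 23003 and 54174 in the Zeb1∆M/ApoeKO libraries, or 81.1 and 818 CPM against 1.49, 538 and 1078 CPM. Like Jun, it was lowest in Zeb1∆M/ApoeKO replicate 1, and its highest value was 726 times its lowest, or 13.3 times without that library.

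Egr1, a zinc finger factor induced through the ERK pathway, lies on chromosome 18 (34859823 to 34864984, plus strand, 2 exons). It had 18445 and 16543 counts in the Zeb1WT/ApoeKO libraries and 48236, 23264 and 10831 in the Zeb1∆M/ApoeKO libraries. The Zeb1WT/ApoeKO values of 668 and 480.0 CPM lay inside the Zeb1∆M/ApoeKO range of 216 to 3980 CPM. Zeb1∆M/ApoeKO replicate 1 had the highest level, also per exon length, and the other 4 libraries were between 216 and 668 CPM.

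Klf2, a Krüppel-like factor that restrains the inflammatory activation of myeloid cells and is also abundant in endothelium and resting lymphocytes, lies on chromosome 8 (72319033 to 72321656, plus strand, 3 exons). It had 2 and 1233 counts in the Zeb1WT/ApoeKO libraries and 29456, 7251 and 3013 in the Zeb1∆M/ApoeKO libraries, or 0.0724 and 35.8 CPM against 2431, 169.5 and 59.97 CPM. It was the single member whose genotypes did not overlap. Of the 7905 genes tested, 11.2% showed no overlap in either direction. Endothelial markers summed to 52.7 and 72.3 CPM in the Zeb1WT/ApoeKO libraries and 4.79, 0.140 and 52.3 CPM in the Zeb1∆M/ApoeKO libraries, with Cdh5 and Emcn at 0 in all 5. T cell markers summed to 7.46 and 2708 CPM against 2.31, 339 and 813 CPM. Erythroid markers summed to 2.72 and 0 CPM against 16147, 0 and 0 CPM, and neutrophil markers to 2617 and 883 CPM against 2735, 1256 and 139 CPM. B cell markers summed to 163 and 565 CPM against 6.02, 533 and 1454 CPM, and fibroblast markers to 0.109 and 0 CPM against 3.88, 444 and 2.25 CPM. The erythroid sum was highest in Zeb1∆M/ApoeKO replicate 1, where Klf2 was highest. The neutrophil sums of that library and of Zeb1WT/ApoeKO replicate 1 were close, and their order rests on the TMM factor of 0.515. In Zeb1∆M/ApoeKO replicate 1 the neutrophil sum was nearly all S100a8, with 33132 counts, and S100a9 was at 0. The part of these cells in the Klf2 level was not tested.

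Ier2, which encodes a small nuclear protein of the immediate early response, is a single-exon gene on chromosome 8 (84661331 to 84662852, minus strand). It had 10257 and 25502 counts in the Zeb1WT/ApoeKO libraries and 1037, 17937 and 32215 in the Zeb1∆M/ApoeKO libraries, or 371 and 740.02 CPM against 85.6, 419 and 641 CPM. It was lowest in Zeb1∆M/ApoeKO replicate 1, where it still passed 1000 counts, and its range was 8.65-fold, or 1.99-fold without that library.

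**Figure D1:**
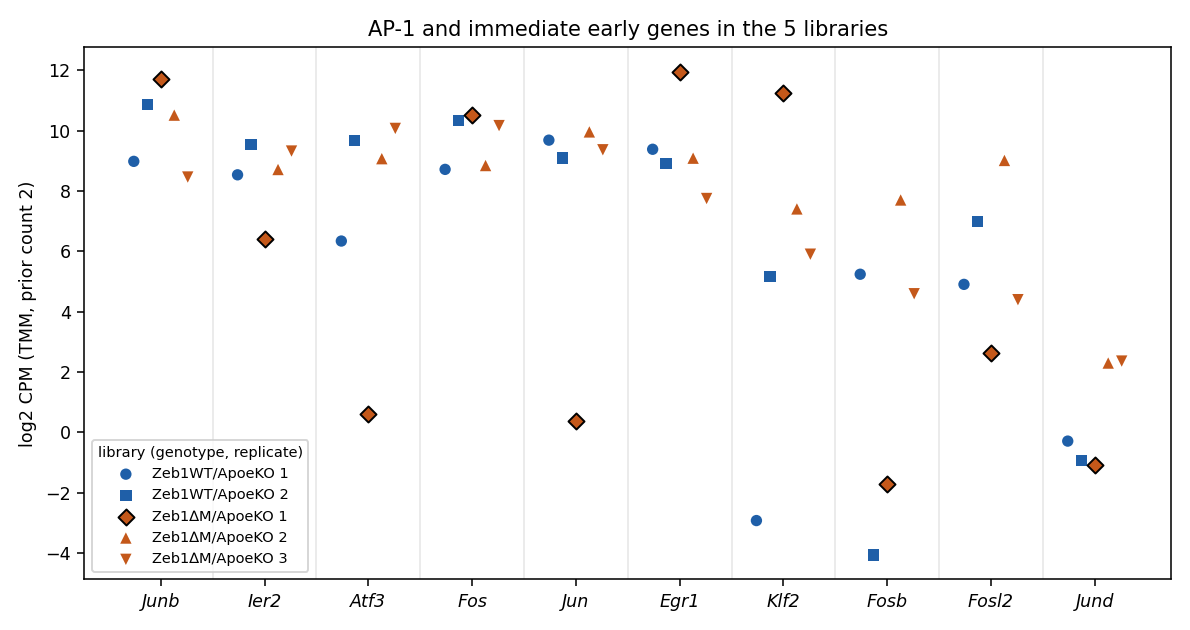
Level of the 10 genes in each library, as log2 CPM after TMM scaling with a prior count of 2, with a symbol for each library, blue for Zeb1WT/ApoeKO and orange for Zeb1∆M/ApoeKO. The values of Fos lie between 8.72 and 10.52, whereas Jun and Atf3 drop to 0.38 and 0.63 in Zeb1∆M/ApoeKO replicate 1 (outlined diamonds) and Klf2 runs from −2.92 to 11.25.

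The SD of log2 CPM over the 5 libraries was 0.87 for Fos, 1.24 for Ier2, 1.34 for Junb and 1.55 for Egr1. It was 3.93 for Atf3, 4.10 for Jun, 4.99 for Fosb and 5.19 for Klf2. The median over the members was 2.10, against 3.86 over all genes tested, which include many genes at low counts. Without Zeb1∆M/ApoeKO replicate 1 the SD was 0.86 for Fos, 0.48 for Ier2, 1.16 for Junb and 0.71 for Egr1. It was then 1.68 for Atf3, 0.38 for Jun, 5.13 for Fosb and 4.63 for Klf2, with medians of 1.42 over the members and 3.82 over all genes tested. Jun, Ier2 and Egr1 thus had lower SDs than Fos among these 4 libraries.

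Levels of different genes were compared as counts per exon length, scaled to the same sum in each library. Junb had the highest median, 1248 (range 336 to 1962), followed by Ier2 at 698 (48.5 to 1182), Atf3 at 633 (0.595 to 1097) and Fos at 537 (477 to 1342). Jun had a median of 453 (0.335 to 790), Egr1 of 307 (105 to 766) and Klf2 of 71.1 (0.104 to 1136). Fosb at 8.47 (0 to 84.5), Fosl2 at 8.24 (0.544 to 135) and Jund at 1.21 (0.213 to 7.39) were last. Each neighbouring pair in this order had overlapping ranges. The order within a library also varied. Jun ranked first among the members in Zeb1WT/ApoeKO replicate 1, Atf3 in Zeb1∆M/ApoeKO replicate 3, and Junb in the other 3 libraries.

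The make-up of the summed per-length level showed the same shift. Klf2 made up 30.4% of it in Zeb1∆M/ApoeKO replicate 1 and 0.00357% to 4.66% in the other 4 libraries. Jun made up 0.00896% in that library and 6.75% to 23.5% in the others. Atf3 made up 0.0159% there and 3.43% to 26.9% elsewhere. Fos, in contrast, stayed between 9.91% and 26.3% in all 5 libraries.

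**Figure D2:**
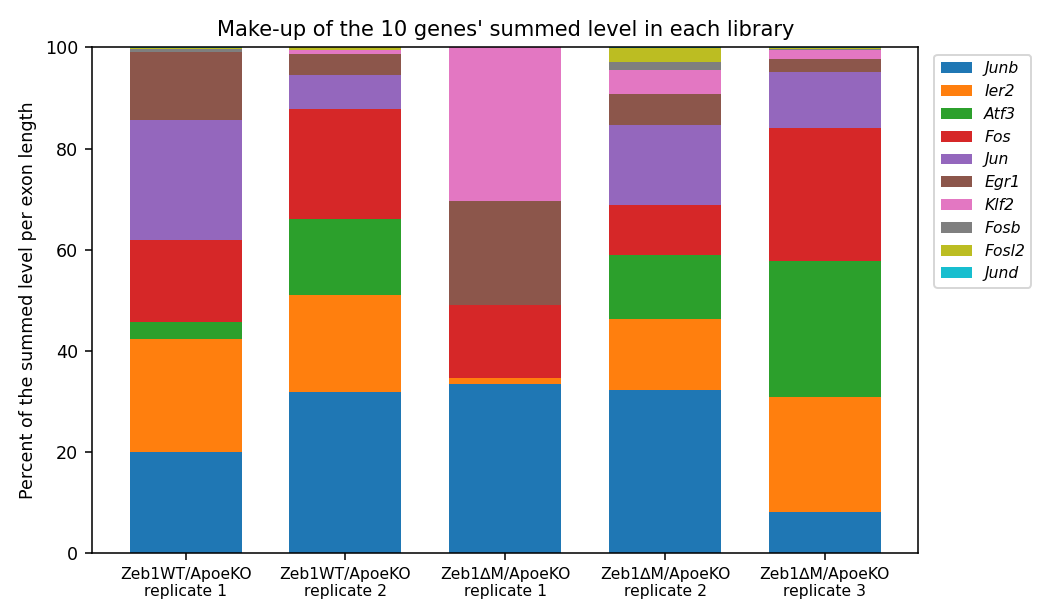
Share of each of the 10 genes in their summed per-length level, in percent, with 1 stacked bar per library. Junb, Klf2, Egr1 and Fos fill nearly all of the bar of Zeb1∆M/ApoeKO replicate 1, at 33.4%, 30.4%, 20.5% and 14.4%, while Jun, Atf3 and Ier2 take visible shares in the other 4.

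The summed counts of the 10 genes were 81173 and 203347 in the Zeb1WT/ApoeKO libraries and 136903, 227364 and 211484 in the Zeb1∆M/ApoeKO libraries. After TMM scaling they were 2939 and 5901 CPM against 11297, 5316 and 4209 CPM. Zeb1∆M/ApoeKO replicate 1 was highest after TMM scaling, where its factor was 0.515, but by library totals it had 5617 CPM, within the range of 4035 to 6356 CPM of the others. The difference in summed level was 0.60 on the log2 scale, smaller than the pooled SD within genotypes of 0.733, and −0.021 without Zeb1∆M/ApoeKO replicate 1.

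No member passed the test between Zeb1∆M/ApoeKO and Zeb1WT/ApoeKO, by the quasi-likelihood test of edgeR, adjusted by Benjamini-Hochberg over 7905 genes. All 10 were tested, and the adjusted p of each was 1. Over all genes edgeR called 0.00%, that is 0 genes, with 86 at an unadjusted p under 0.05 and no member among them. DESeq2 called 12.1% of the 6519 genes to which it gave an adjusted p (448 higher and 342 lower in Zeb1∆M/ApoeKO), and limma-voom called 234 genes. Neither called a member, although DESeq2 gave Klf2 no adjusted p. The 10 members had a median log2 fold change of 0.87, against 0.78 over all genes tested, and 8 of 10 were above 0. Both medians moved with the settings. The median over all genes was 3.56 in DESeq2, −0.30 in limma-voom, and 6.42 and 6.32 without Zeb1WT/ApoeKO replicate 1 or 2, where the members had 1.09, 0.098, 0.38 and 1.22. With upper-quartile scaling the members moved further, to −1.64 against 0.29 over all genes, and without Zeb1∆M/ApoeKO replicate 3 they had 1.46 against 0.51. The median standard error was 3.29 for the members and 4.60 for all genes tested.

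Klf2 had the largest log2 fold change of the members, 5.63 (SE 4.22, adjusted p = 1 in edgeR), from 17.9 ± 25.2 CPM (SD, n = 2) in Zeb1WT/ApoeKO to 887 ± 1338 CPM (SD, n = 3) in Zeb1∆M/ApoeKO. A two-sided exact permutation test gave p = 0.1, the smallest that 2 libraries against 3 allow. Without Zeb1∆M/ApoeKO replicate 1 the Zeb1∆M/ApoeKO mean was 115 ± 77.5 CPM (SD, n = 2) and the value was 2.64 (SE 5.30). Klf2 was then no longer the largest, since Jund had 2.77 (SE 3.73) in that fit. Without Zeb1WT/ApoeKO replicate 2 the remaining Zeb1WT/ApoeKO library has 2 counts, under the floor, so the fold of that fit is no measure of size. Klf2 was above 0 in each alternative in which it was fitted, that one included.

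Jund was next, at 2.49 (SE 4.23), with 0.612 ± 0.209 CPM (SD, n = 2) in Zeb1WT/ApoeKO and 3.46 ± 2.64 CPM (SD, n = 3) in Zeb1∆M/ApoeKO. Upper-quartile scaling turned it to −1.70. Fosb stood at 2.04 (SE 5.30) and turned to −3.33 under that scaling. Fosl2 stood at 1.21 (SE 4.51), at −1.59 under that scaling and at −2.49 without Zeb1∆M/ApoeKO replicate 2. All of these standard errors exceed the differences.

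Egr1 had 574 ± 133 CPM (SD, n = 2) in Zeb1WT/ApoeKO and 1580 ± 2085 CPM (SD, n = 3) in Zeb1∆M/ApoeKO, a log2 fold change of 1.46 (SE 2.84). Without Zeb1∆M/ApoeKO replicate 1 it was −0.83 (SE 2.15). Junb had 1181 ± 955 against 1714 ± 1503 CPM, a log2 fold change of 0.54 (SE 2.58), and −0.49 (SE 1.47) without that library. With that library kept, Junb was also below 0 without Zeb1WT/ApoeKO replicate 1, at −0.26, and both genes were below 0 in limma-voom.

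Fos had 859 ± 620 CPM (SD, n = 2) in Zeb1WT/ApoeKO and 1025 ± 514 CPM (SD, n = 3) in Zeb1∆M/ApoeKO, a log2 fold change of 0.25 (SE 2.85), which was −0.23 (SE 1.65) without Zeb1∆M/ApoeKO replicate 1. Atf3 had 449.6 ± 521 against 539 ± 538 CPM and a log2 fold change of 0.26 (SE 3.28), which was 0.76 (SE 1.97) without that library and −3.17 with a replicate block. Jun, at 685 ± 196 against 552 ± 505 CPM, had a log2 fold change of −0.31 (SE 3.12), and 0.03 (SE 1.69) without that library. Ier2, at 556 ± 261 against 382 ± 279.7 CPM, had −0.54 (SE 3.30), and −0.23 (SE 2.03) without it. In the fit of all libraries these 4 abundant genes had differences under 1 on the log2 scale, whose sign changed in some settings and whose size was larger in others, at −5.19 for Jun and −3.42 for Ier2 with upper-quartile scaling, with standard errors that do not show the genotypes to be alike.

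**Figure D3:**
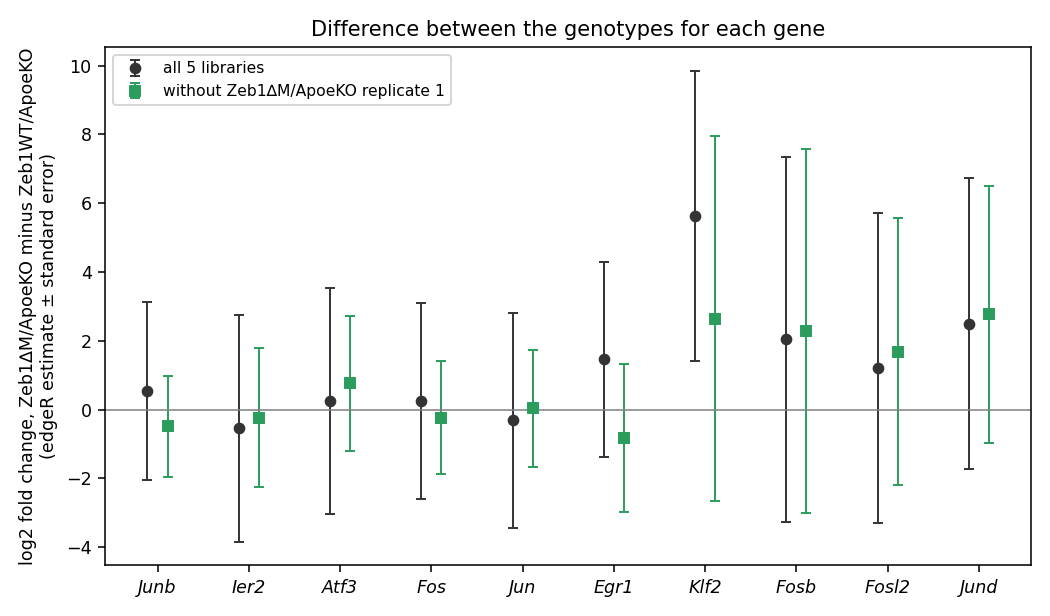
Log2 fold change of each gene, Zeb1∆M/ApoeKO against Zeb1WT/ApoeKO, for all 5 libraries and without Zeb1∆M/ApoeKO replicate 1. Bars are standard errors derived from the F statistic of edgeR. The points run from −0.54 for Ier2 to 5.63 for Klf2 with all libraries, where the bars of the 9 other genes cross 0, and without Zeb1∆M/ApoeKO replicate 1 the bar of Klf2 crosses 0 as well.

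The other genes of the pathway were read from lists of related genes. Of 13 other AP-1 and related leucine zipper genes, 6 were tested and edgeR called 0, with 0 at an unadjusted p under 0.05. Fosl1, the remaining FOS family gene, and Batf2 were at 0 in all libraries. Atf4, the effector of the integrated stress response, had 265 and 12542 counts in the Zeb1WT/ApoeKO libraries and 26, 21 and 3535 in the Zeb1∆M/ApoeKO libraries. Maff, a small MAF protein, had 477 and 0 against 33, 0 and 2 counts. The count ranges of the genotypes overlapped for both.

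Of 30 other immediate early genes, 27 were tested and 19 passed 3 counts in all libraries. edgeR called 0 of them, with 0 at an unadjusted p under 0.05. Dusp1, the phosphatase that shuts off MAP kinases, had 61279 and 105999 counts in the Zeb1WT/ApoeKO libraries and 10934, 110646 and 136178 in the Zeb1∆M/ApoeKO libraries, with a log2 fold change of −0.36 (SE 2.27). Nfkbia, the inhibitor of NF-kB, had 1006 and 46973 against 22, 110719 and 102814 counts. Gadd45b, a stress response gene, had 3716 and 3517 against 0, 5 and 0 counts, and DESeq2 and limma-voom called it lower. DESeq2 also called Nr4a2, a nuclear receptor, lower (8931 and 0 against 1, 0 and 0 counts) and Rhob, a small GTPase, higher (0 and 0 against 307, 0 and 4202 counts). In Zeb1∆M/ApoeKO replicate 1, 18 of the 30 genes were under 100 counts, against 7 to 10 in the others. Among the genes tested, 15 of 27 were under 100 counts there, against 90.2% of all genes tested and 70.7% of the 1578 with a mean of 100 CPM or more. Neither background was matched to the abundance of the list.

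**Figure D4:**
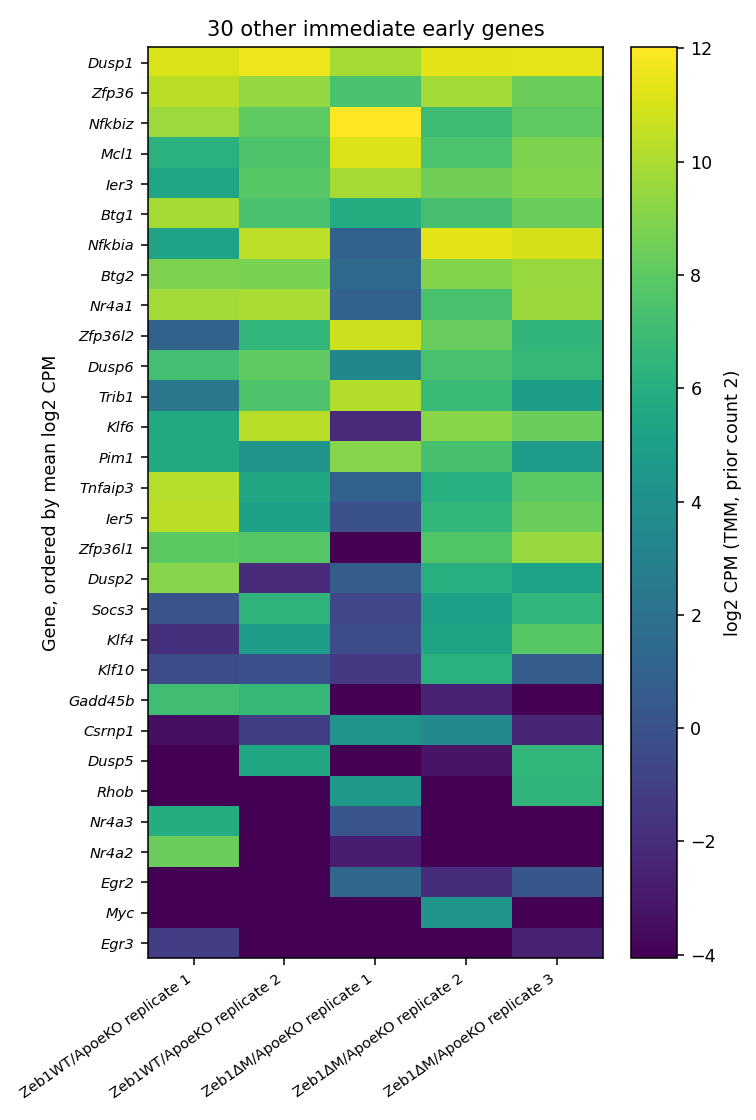
Log2 CPM (TMM scaling, prior count of 2) of the 30 other immediate early genes in the 5 libraries, as a colour scale. Dusp1 is high in all 5 columns, and the column of Zeb1∆M/ApoeKO replicate 1 holds 18 genes under 100 counts.

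Upstream kinases and factors summed to between 57.3 and 994 CPM, against 9485 to 12021 CPM for the other immediate early genes. Of 22 in the table, 12 were tested, 0 passed 3 counts in all libraries and edgeR called 0, with 0 at an unadjusted p under 0.05. Map2k3, an activator of p38 kinases, had 0 and 3 counts in the Zeb1WT/ApoeKO libraries and 0, 27863 and 8755 in the Zeb1∆M/ApoeKO libraries, and DESeq2 and limma-voom called it higher, as they did Mapkapk2, a kinase downstream of p38 (0 and 0 against 10, 5048 and 623 counts). DESeq2 also called Mapk8, which encodes a JNK kinase, higher (0 and 0 against 56, 0 and 0 counts) and Mapk3, which encodes an ERK kinase, lower (0 and 2276 against 0, 0 and 0 counts). Mapk14, the p38 kinase itself, had 0 and 1531 against 160, 518 and 12321 counts. Of 16 inducible target genes 13 were tested and edgeR called 0, with 1 at an unadjusted p under 0.05. That gene was Mmp12, the macrophage elastase, with 48181 and 2165 counts in the Zeb1WT/ApoeKO libraries and 36, 0 and 0 in the Zeb1∆M/ApoeKO libraries, and limma-voom called it lower. DESeq2 called Hmox1, the heme oxygenase, higher (0 and 0 against 17, 4262 and 0 counts). Cd14, a co-receptor for lipopolysaccharide, had 59319 and 101356 against 33, 156741 and 105990 counts, and the chemokine Ccl3 had 5295 and 17627 against 30764, 34779 and 36746 counts.

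Heat shock genes were listed since they too are known to respond to handling of cells. Of 12, 11 were tested and edgeR called 0, with 0 at an unadjusted p under 0.05. Hspa8, a constitutive chaperone, had 56820 and 201892 counts in the Zeb1WT/ApoeKO libraries and 61203, 164732 and 209949 in the Zeb1∆M/ApoeKO libraries. Hspa1a, the inducible one, had 28749 and 119523 against 6, 78438 and 125100 counts, so that it too was nearly absent from Zeb1∆M/ApoeKO replicate 1. Hspd1, a mitochondrial chaperone, had 0 and 0 against 5, 18156 and 4077 counts, and DESeq2 and limma-voom called it higher. The part of handling in the levels of Fos, Jun and the other members was not tested.

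The genes whose log2 CPM over the 5 libraries, centred on its mean, was closest to the summed level of the members were Actb, Pfn1 and Ftl1-ps1. Their mean absolute differences were 0.0740, 0.170 and 0.177 on the log2 scale, over 5 libraries. Ftl1-ps1 is a pseudogene copy of Ftl1, and its reads are uncertain. The members and these genes share the TMM factors, which ran from 0.515 in Zeb1∆M/ApoeKO replicate 1 to 1.42 in Zeb1WT/ApoeKO replicate 1. An abundant gene steady by library totals would therefore show part of this course, and joint regulation was not tested.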

How the data were processed

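RNAseq libraries of sorted aortic macrophages, 2 Zeb1WT/ApoeKO and 3 Zeb1∆M/ApoeKO, were assigned to genotypes from their labels. The authors mapped reads to GRCm38 with STAR 2.5.3a and quantified genes with RSEM 1.3.0 (versions from the submitters' processing notes) and a GENCODE mouse annotation, and they deposited expected counts as whole numbers, without normalization or filter. No column was left unused. Expected counts share reads among similar genes, so pseudogene copies are uncertain.

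Counts were tested with edgeR 4.0.16 in R 4.3.3 (TMM, filterByExpr with a minimum count of 10, quasi-likelihood test, no covariate, Benjamini-Hochberg adjustment, threshold 0.05). Log2 CPM used a prior count of 2. Standard errors were derived as the absolute log2 fold change over the square root of the quasi-likelihood F statistic. Each therefore exceeds its difference whenever F is below 1. Coordinates and exon lengths came from GENCODE M21 on GRCm38, which held 55227 of the 55487 identifiers. The fits were tested on simulated data whose dispersion, the spread between replicates, was far below the 6.44 estimated here. That test therefore does not show how the fits perform at the spread of these data. Alternatives were DESeq2 1.42.0, limma-voom (limma 3.58.1) with quality weights, other scalings and filters, a replicate block, each library left out and a threshold of 0.1. The text names all members and, from each other list, called genes or else the 2 most abundant and the gene of lowest p, except 1 gene that is not reported here. It also names Zeb1, Lyz2, Apoe and the 3 genes most like the members. Other genes were chosen after their values were seen. Members and lists were chosen with earlier results of these data known.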

Additional observations from a re-analysis of the deposited data

How the results depend on the processing

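No member was called in any of 127 alternative fits of a member, of which 101 kept its direction and 26 did not. DESeq2 called 790 genes and limma-voom 234, against 0 in edgeR, and a threshold of 0.1 also called 0. The median over all genes tested, 0.78 with TMM, was 1.24 with RLE size factors, 0.29 with upper-quartile scaling and 0.13 by library totals. The causes of the changes below were not tested. Upper-quartile scaling turned the median log2 fold change of the members to −1.64, the difference in summed level to −0.47, and the log2 fold changes of Fos to −0.094, Fosb to −3.33, Fosl2 to −1.59, Jund to −1.70 and Atf3 to −2.26, while Jun was −5.19 and Ier2 −3.42. With limma-voom Junb was −0.57 and Egr1 −0.64. By library totals alone Fos was −0.23 and Junb −0.047. Without a filter Junb was −0.083. With at least 10 counts in every library Fos was −0.29 and Junb −0.10, and Fosb, Jund and Klf2 were left out by construction. RLE size factors left 2 members without overlap, Klf2 and Ier2, and 10.9% of all genes tested.

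Replicates 1 and 2 occur in both genotypes, but the labels do not say that a number marks a shared origin, and the differences between them correlated at 0.18. With the replicate block edgeR called 0 genes (7 at an unadjusted p under 0.05), Fosl2 was −0.13, Atf3 −3.17 and Jun −4.21.

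Leaving out 1 library at a time gave log2 fold changes of −0.41 to 1.04 for Fos, −0.59 to 14.46 for Fosb, −2.49 to 2.60 for Fosl2, −0.99 to 0.13 for Jun, −0.49 to 1.40 for Junb and 2.11 to 2.99 for Jund. They were −0.83 to 2.17 for Egr1, −0.74 to 2.76 for Atf3, −1.11 to 0.026 for Ier2 and 2.64 to 12.95 for Klf2. The upper ends for Fosb and Klf2 are set against a lone Zeb1WT/ApoeKO library with 0 and 2 counts, so they depend on the prior count and are no measure of size. The median over the members ranged from 0.38 to 1.46, and the difference in summed level from −0.021 to 1.0. Between 1 and 4 members had no overlap. Of all genes tested, 38.8% and 31.0% had none without Zeb1WT/ApoeKO replicate 1 or 2, and 20.6% to 24.4% without a Zeb1∆M/ApoeKO library. Klf2 was among the members without overlap each time. It had none with all libraries, so leaving 1 out could create an overlap only through rescaling. Leaving out a Zeb1WT/ApoeKO library leaves 1 of that genotype, which is then assumed to vary like the others. With 2 and 3 libraries and these standard errors, edgeR could miss differences of several fold, and its power was not tested.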
